A study of Mus musculus with 14 samples.

Results

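The genes described here are 9 transcripts that neutrophils and other granulocytes carry, namely S100a8, S100a9, Trem1, Cxcr2, Csf3r, Il1b, Ltf, Ngp and Camp. They were taken by symbol, matched through the GENCODE mouse annotation to Ensembl gene identifiers, and all 9 were found among the 56980 gene identifiers in the count tables. All 9 also passed the filter on low counts in every comparison. They were measured by bulk RNA-seq of whole kidneys of female wild-type mice (CD-1, which is not inbred) aged 18 weeks. The term non-diabetic group (T-ND, n = 4) and the term diabetic group (T-D, n = 4) were born at full term and stayed with their own mothers, and the preterm non-diabetic group (PT-ND, n = 3) and the preterm diabetic group (PT-D, n = 3) were born early. Both diabetic groups received streptozotocin (STZ), a toxin of pancreatic beta cells that causes hyperglycemia, and both non-diabetic groups received none. Preterm pups were delivered by Caesarean section and raised by foster mothers whose drinking water held the sedative acepromazine, so these exposures and early birth cannot be told apart. Some of the study's PT-D mice, but no T-D mice, had a further course of STZ, and the sources used here do not say which. All mice in the study received cationic ferritin for imaging before the kidneys were taken.

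Neutrophils are short-lived white blood cells that leave the bone marrow when granulocyte colony-stimulating factor acts on its receptor, and that follow CXC chemokines made by injured or infected tissue. They pack antimicrobial proteins into granules while they mature in the marrow, so transcripts of the granule proteins are highest in maturing cells and transcripts of the receptors and of S100a8 and S100a9 stay high in mature ones. In the kidney they are few at rest and enter during acute injury, infection and inflammation, crossing the vessel wall after binding to selectins and to intercellular adhesion molecules on the endothelium.

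Several of the 9 genes are neighbours in the genome (build GRCm39, GENCODE release M39). S100a8 (ENSMUSG00000056054.10, chr3:90567118-90578128, plus strand) lies 21.8 kb from S100a9 (ENSMUSG00000056071.13, chr3:90599931-90603071, minus strand). The 3 granule genes share chromosome 9, with Camp (ENSMUSG00000038357.11, chr9:109676442-109678685, minus strand) 570.1 kb from Ngp (ENSMUSG00000032484.9, chr9:110248815-110252086, plus strand), which in turn lies 596.3 kb from Ltf (ENSMUSG00000032496.8, chr9:110848339-110871835, plus strand). The others are scattered, with Trem1 (ENSMUSG00000042265.14) at chr17:48539784-48553952, Cxcr2 (ENSMUSG00000026180.9) at chr1:74193150-74200405, Csf3r (ENSMUSG00000028859.15) at chr4:125918262-125938236 and Il1b (ENSMUSG00000027398.14) at chr2:129206490-129213059. All 9 are annotated as protein coding.

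Promoter windows of 300 bases around the RefSeq start sites are shown for 4 of the genes, because S100a8, S100a9 and Ngp were high together in PT-D kidneys while Il1b was not. The windows come from RefSeq (GRCm38.p6) and each was found at a single place in GRCm39, where it is located here. Capitals mark exact matches to 3 motifs that were searched: TTNNGNAA on both strands for the C/EBP family of granulocyte transcription factors, GAGGAA on both strands for the myeloid factor PU.1, and TATAAA on the gene's own strand for a TATA box.
S100a8 (chr3:90576128-90576427, plus strand): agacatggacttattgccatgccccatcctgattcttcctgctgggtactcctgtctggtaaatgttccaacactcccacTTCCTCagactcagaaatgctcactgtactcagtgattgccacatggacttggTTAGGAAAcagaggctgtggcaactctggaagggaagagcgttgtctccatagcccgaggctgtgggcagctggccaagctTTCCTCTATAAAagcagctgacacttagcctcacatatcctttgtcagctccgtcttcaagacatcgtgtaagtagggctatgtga
S100a9 (chr3:90602979-90603278, minus strand): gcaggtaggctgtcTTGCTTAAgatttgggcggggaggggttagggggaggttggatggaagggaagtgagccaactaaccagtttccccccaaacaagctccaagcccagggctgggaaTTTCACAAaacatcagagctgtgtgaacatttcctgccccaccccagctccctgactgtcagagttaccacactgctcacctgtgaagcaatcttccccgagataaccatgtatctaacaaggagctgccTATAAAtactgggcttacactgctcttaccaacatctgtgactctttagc
Ngp (chr9:110248626-110248925, plus strand): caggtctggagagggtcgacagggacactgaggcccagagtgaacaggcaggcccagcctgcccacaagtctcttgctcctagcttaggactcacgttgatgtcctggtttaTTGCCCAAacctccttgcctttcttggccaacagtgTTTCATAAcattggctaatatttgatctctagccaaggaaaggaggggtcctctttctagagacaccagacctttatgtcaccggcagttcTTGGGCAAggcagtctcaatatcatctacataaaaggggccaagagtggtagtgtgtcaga
Il1b (chr2:129213010-129213309, minus strand): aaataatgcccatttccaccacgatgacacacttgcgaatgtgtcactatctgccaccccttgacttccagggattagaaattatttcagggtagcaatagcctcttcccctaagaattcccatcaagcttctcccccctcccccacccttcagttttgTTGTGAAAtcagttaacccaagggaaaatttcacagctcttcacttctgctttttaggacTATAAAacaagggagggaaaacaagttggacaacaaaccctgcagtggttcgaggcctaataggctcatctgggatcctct

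The C/EBP letters were present in the windows of 6 of the 9 genes, against 40.7% of 32851 RefSeq promoter windows of the same length. The PU.1 letters were present in 5 of 9 windows, against 28.3% of all windows. The TATA letters were present in 3 of 9 windows, those of S100a8, S100a9 and Il1b, against 8.32% of all windows. Counted from the start site, they lay at -31 to -26 in Il1b and at -30 to -25 in S100a8, but at 1 to 6 in S100a9. Ngp, a granule protein gene, had 3 matches to the C/EBP letters and none to the others, whereas Camp had no match to any of the motifs. Il1b shared both the C/EBP and the TATA letters with S100a8 and S100a9, so these letters did not separate the genes that were high in PT-D from the one that was not. In S100a8 the PU.1 letters at -36 to -31 directly preceded the TATA letters at -30 to -25, counted from the start site, and the other PU.1 match lay at -170 to -165. A match describes the letters in these windows and was not tested as a binding site.

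The 14 libraries held between 16697246 and 28673176 counts on genes, with a median of 18765582, and the values below are counts scaled to a common library size by edgeR's TMM method (normalized counts). Over all 14 libraries the raw counts of the 9 genes summed from 152 for Camp to 7874 for S100a9, so the values of Camp and Trem1 (165 counts) rest on few reads and carry a large counting error. The library preparation was not strand-specific, and Trem1 shares 823 exonic bases with an antisense long non-coding RNA, Csf3r 235 with the antisense Gm32908 and Il1b 95 with Il1bos, so reads there cannot be assigned to 1 strand. Kidney markers such as Lrp2 and Umod were present in every library, their 10-gene sum lying between 135000 and 199300 normalized counts. Of the defining neutrophil markers, Ly6g had a count in 11 of 14 libraries and reached at most 14.6 normalized counts, and Cxcr1 had a count in only 1 library. Genes of immature granulocytes were near or at 0, with Mpo counted in 5 libraries, Elane in 3, Ms4a3 in 2 and Ctsg in none, while Prtn3 was counted in 12 with at most 18 counts.

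The highest levels of 8 of the 9 genes were found in PT-D kidneys, and 1 PT-D library carried the top value of all 14 libraries for each of these 8. The exception was Il1b, whose highest value was in a PT-ND kidney. In bulk tissue, more cells of a type and more RNA per cell cannot be told apart, and this holds for every value below. The plot of the 9 genes by library shows these values.

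**Figure D1:**
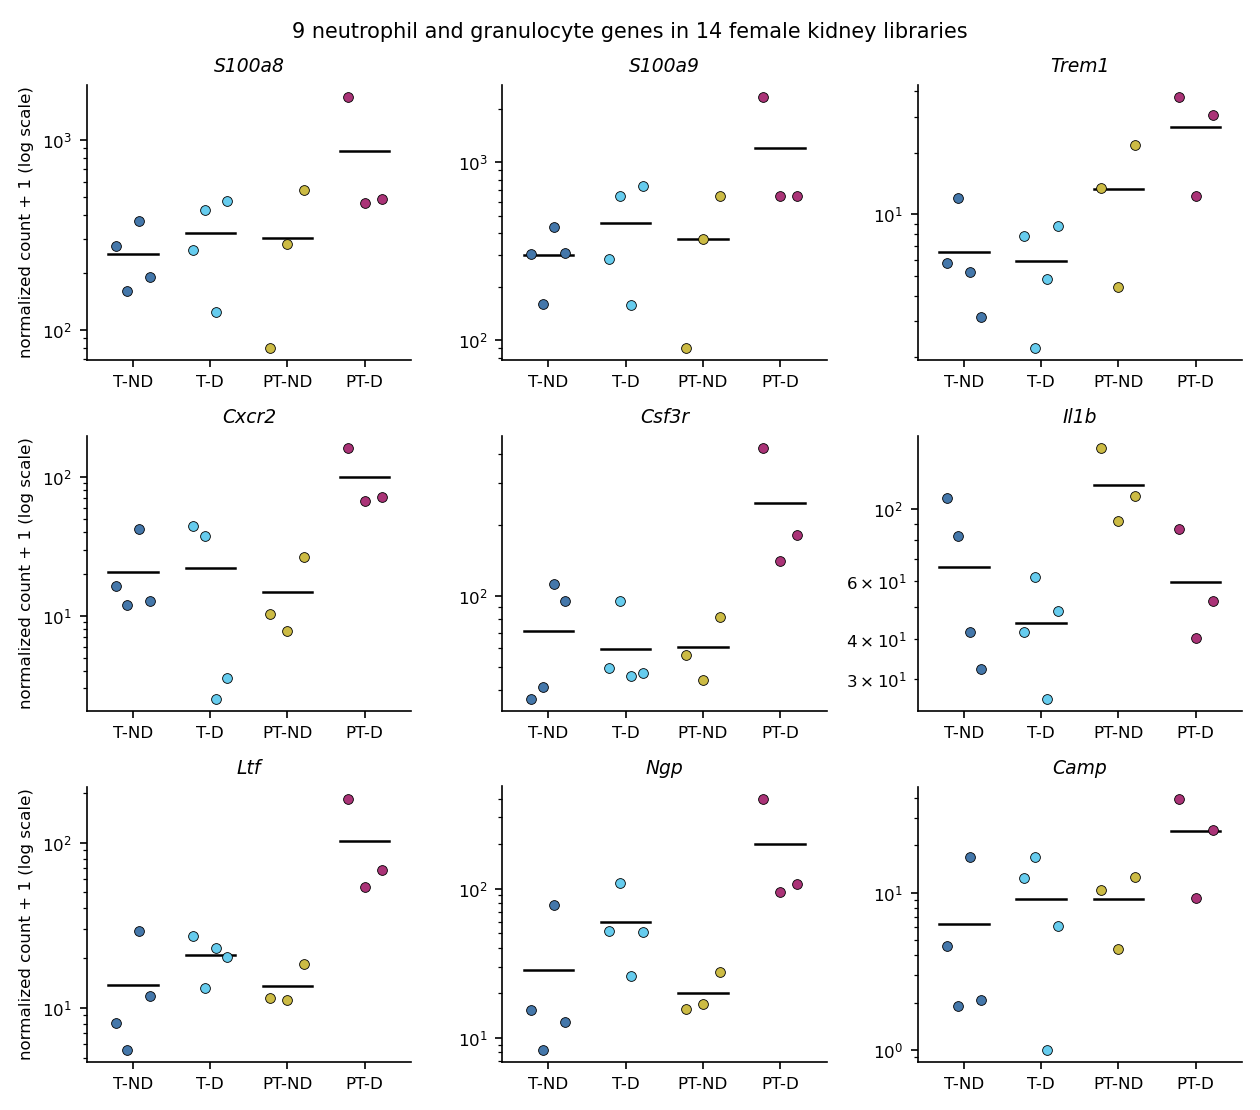
Normalized count plus 1 (log axis) of each of the 9 genes in each library, with 1 point per kidney and a horizontal line at the group mean. PT-D replicate 1 is the highest library for 8 genes, at 1678 for S100a8 and 397 for Ngp, and Il1b is highest in PT-ND replicate 1, at 152.

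S100a8 and S100a9 encode the 2 subunits of calprotectin, an alarmin that neutrophils release and that signals through Toll-like receptor 4. In the diabetic kidneys S100a8 stood at 1678, 463 and 485 normalized counts in PT-D replicates 1 to 3 and at 263, 424, 123 and 476 in T-D replicates 1 to 4. In the non-diabetic kidneys it stood at 79.3, 281 and 546 in PT-ND and at 276, 159, 372 and 189 in T-ND. One PT-D library was far above all others, the remaining PT-D libraries lay above every T-ND library, and they overlapped with T-D and PT-ND. S100a9 followed the same order, with 2323, 646 and 646 in PT-D, 285, 642, 158 and 735 in T-D, 89.7, 370 and 647 in PT-ND, and 304, 159, 431 and 310 in T-ND. Its ratio to S100a8 stayed between 1.0 and 1.64 in all 14 libraries, while the level of either gene varied far more widely. Per kilobase of exon, the only scale on which genes are compared here, the PT-D means were 889 ± 706 (SD, n = 3) for S100a8 and 945 ± 759 for S100a9, the highest of the 9 genes.

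Cxcr2 encodes the chemokine receptor by which neutrophils follow Cxcl1 and Cxcl2. Its normalized counts were 161, 66.2 and 71.2 in PT-D and 43.0, 36.6, 1.52 and 2.57 in T-D. They were 9.39, 6.79 and 25.4 in PT-ND and 15.5, 10.96, 40.9 and 11.8 in T-ND. Every PT-D library was above every library of the other 3 groups, whose ranges overlapped one another. The T-D group was itself split, with replicates 1 and 2 well above replicates 3 and 4.

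Csf3r, the receptor for granulocyte colony-stimulating factor, showed the same separation of PT-D. It stood at 422, 140 and 181 in PT-D and at 48.7, 93.8, 45.0 and 46.3 in T-D. In PT-ND it stood at 55.3, 43.0 and 80.8, and in T-ND at 35.7, 40.2, 111 and 94.6. The lowest PT-D library was above the highest library of any other group. T-D replicate 2 was set apart from the rest of its group, and T-ND formed a higher and a lower pair.

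Trem1, a receptor that amplifies the inflammatory response of neutrophils and monocytes, was the least abundant of the receptors. It stood at 36.5, 11.3 and 29.6 in PT-D, at 6.80, 1.22, 3.81 and 7.72 in T-D, at 12.5, 3.39 and 20.8 in PT-ND, and at 4.75, 10.96, 4.19 and 2.15 in T-ND. The PT-D libraries lay above both term groups and overlapped with PT-ND.

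Of the granule proteins, Ltf alone was clear of all other groups. Ltf encodes lactoferrin, the iron-binding protein of specific granules, and stood at 182, 52.7 and 67.2 in PT-D and at 26.1, 12.2, 22.1 and 19.3 in T-D. It stood at 10.4, 10.2 and 17.3 in PT-ND and at 7.13, 4.57, 28.3 and 10.8 in T-ND. All PT-D libraries were above all 11 others. Ngp, the neutrophilic granule protein, stood at 397, 93.3 and 106 in PT-D, 51.0, 107, 25.2 and 50.2 in T-D, 14.6, 15.8 and 26.5 in PT-ND, and 14.3, 7.31, 76.5 and 11.8 in T-ND. Here PT-D was clear of both non-diabetic groups, but T-D replicate 2 lay within the PT-D range, and T-ND replicate 3 was far above the rest of its group. Camp, which encodes the precursor of the antimicrobial peptide cathelicidin, stood at 38.3, 8.28 and 23.99 in PT-D, 11.3, 15.8, 0 and 5.15 in T-D, 9.39, 3.39 and 11.5 in PT-ND, and 3.57, 0.913, 15.7 and 1.08 in T-ND. Its groups overlapped throughout.

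Il1b, the pro-inflammatory cytokine interleukin-1 beta, which monocytes and macrophages make as well, did not share this pattern. It stood at 85.7, 39.1 and 51.2 in PT-D, 40.8, 60.9, 25.2 and 47.6 in T-D, 152, 90.5 and 109 in PT-ND, and 107, 81.3, 40.9 and 31.2 in T-ND. The PT-ND libraries were all above the PT-D and T-D libraries, and T-ND overlapped with all 3 other groups. Per kilobase of exon its mean was 45.0 ± 12.2 in PT-ND (n = 3), 25.01 ± 13.6 in T-ND (n = 4), 22.6 ± 9.30 in PT-D (n = 3) and 16.8 ± 5.72 in T-D (n = 4). For each 100 normalized counts of S100a8 there were 5.11 to 10.5 of Il1b in PT-D, against 19.9 to 192 in PT-ND, 10 to 20.5 in T-D and 10.99 to 51.2 in T-ND.

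PT-D replicate 1 exceeded the mean of the other PT-D kidneys by 1.79 times for Trem1, 2.34 times for Cxcr2, 2.63 times for Csf3r, 3.04 times for Ltf, 3.54 times for S100a8, 3.59 times for S100a9 and 3.99 times for Ngp. The proportions among the genes were closer than their levels. Ngp made up 20.2 to 23.6 per 100 of S100a8 in the 3 PT-D libraries, Ltf 10.9 to 13.8 and Cxcr2 9.57 to 14.7. Over all 14 libraries the same ratios ran from 4.60 to 25.3 for Ngp, from 2.59 to 18.0 for Ltf and from 0.541 to 16.4 for Cxcr2. Values without PT-D replicate 1 are therefore given beside the comparisons of PT-D.

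The first comparison, PT-D vs T-ND, asks what early birth and diabetes do in combination. Ltf and Cxcr2 were upregulated in PT-D, Ltf by 2.98 on the log2 scale (SE 0.63, adjusted p = 0.0425) and Cxcr2 by 2.32 (SE 0.52, adjusted p = 0.048). A gene was called when edgeR's quasi-likelihood test gave it a p under 0.05 after Benjamini-Hochberg adjustment over all genes and it changed by more than 1 on the log2 scale in either direction, a rule met by 1.45% of the 22310 genes tested. So 2 of the 9 genes were called, both higher. At an unadjusted p under 0.05 there were 8 of 9, every one except Il1b, against 24.3% of all genes. Their median log2 fold change over all 9 was 2.12, against 0.03 over all genes tested.

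The alarmins did not pass this threshold, with log2 fold changes of 1.81 (SE 0.46, adjusted p = 0.0611) for S100a8 and 2.00 (SE 0.47, adjusted p = 0.0527) for S100a9 by edgeR. Csf3r (1.81, SE 0.48, adjusted p = 0.0675), Ngp (2.85, SE 0.79, adjusted p = 0.0723) and Trem1 (2.17, SE 0.62, adjusted p = 0.0785) did not pass it either, nor did Camp (2.12, SE 0.89, adjusted p = 0.181). Il1b differed by -0.16 (SE 0.46, adjusted p = 0.869), and the sign of this small value turned when the suffix of the library names was a covariate. In 7 of the 9 genes every PT-D library was above every T-ND library, which was so for 12% of all genes.

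The count of 2 depended on single libraries and on the tool. DESeq2 called 7 of the 9 genes, where it called 4.32% of all genes; 7 were called without T-ND replicate 3, and none without any other single library, PT-D replicate 1 included. Without PT-D replicate 1 the log2 fold changes of the 8 genes other than Il1b remained above 0, from 0.92 to 2.22. S100a8 then differed by 0.92, S100a9 by 1.09, Csf3r by 1.17 and Ngp by 1.84. Some library names in the deposit end in the letter a (the first PT-D library, the second PT-ND library, the first T-D library and the first pair of T-ND libraries), and what the letter stands for is not given in the sources used here. Within the libraries with the letter these 8 genes were 4.64 to 36.8 times as high in PT-D (n = 1) as in T-ND (n = 2), and within those without it 1.56 to 6.45 times (n = 2 and 2).

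**Figure D2:**
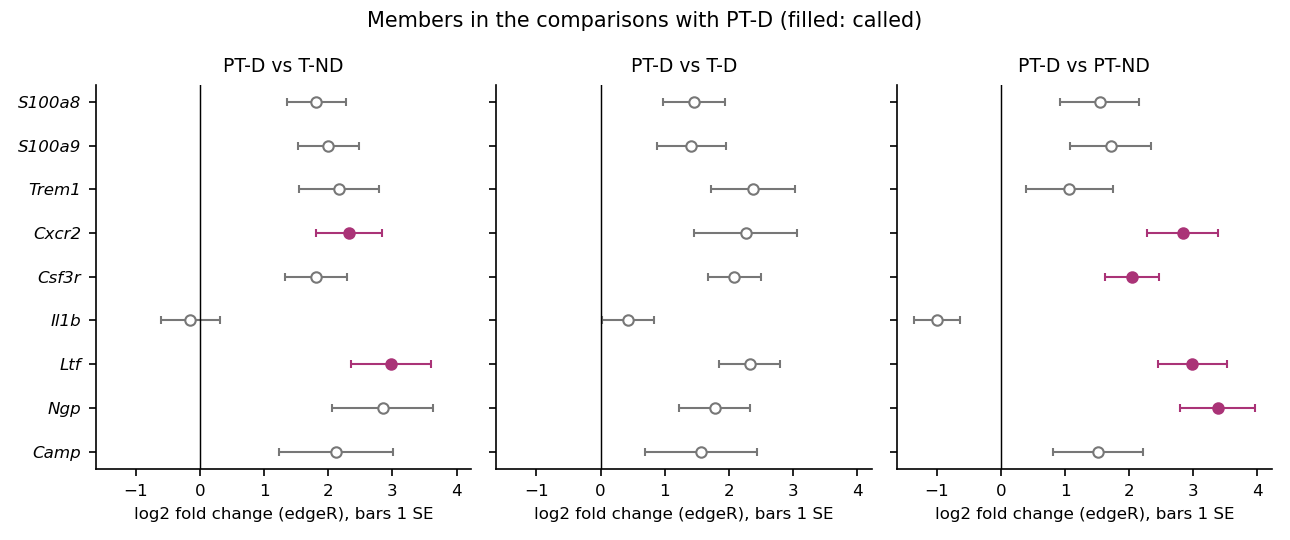
Log2 fold change (horizontal axis) of each of the 9 genes in PT-D against T-ND, T-D and PT-ND, with bars of 1 SE from edgeR and filled points for called genes. Filled points are Ltf and Cxcr2 against T-ND, none against T-D, and Cxcr2, Csf3r, Ltf and Ngp against PT-ND; Il1b lies left of 0 against PT-ND, at -1.

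The second comparison, PT-D vs T-D, asks what early birth adds among diabetic mice. The receptors and Ltf had the widest differences, with log2 fold changes of 2.38 (SE 0.66) for Trem1, 2.33 (SE 0.47) for Ltf, 2.27 (SE 0.80) for Cxcr2 and 2.09 (SE 0.41) for Csf3r, but their adjusted p-values by edgeR lay between 0.0664 and 0.133. None of the 9 genes was called by edgeR, where 0.193% of all genes were, and 7 of 9 had an unadjusted p under 0.05, against 22.3% of all genes. DESeq2 called 4 of the 9, Trem1, Csf3r, Ltf and Ngp, all higher, where it called 2.96% of all genes. Trem1, Cxcr2, Csf3r and Ltf were higher in every PT-D library than in every T-D library, which was so for 12.4% of all genes. The median over the 9 genes was 1.78, against 0.06 over all genes tested.

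The remaining genes overlapped between these groups. Their log2 fold changes were 1.78 (SE 0.55) for Ngp, 1.57 (SE 0.88) for Camp, 1.46 (SE 0.49) for S100a8, 1.42 (SE 0.53) for S100a9 and 0.43 (SE 0.40) for Il1b. Csf3r was called by edgeR without T-D replicate 2 or without PT-D replicate 2, so that 1 gene was called in each case. Without PT-D replicate 1 the log2 fold changes of the genes other than Il1b ranged from 0.49 to 2.03, with S100a8 at 0.55, S100a9 at 0.49, Ngp at 0.76, Camp at 1.01 and Csf3r at 1.44. Il1b differed by 0.04 in this fit. Within the libraries whose names carry the letter the 8 genes other than Il1b were 3.38 to 8.67 times as high in PT-D as in T-D (n = 1 and 1), and within the others 1.26 to 5.07 times (n = 2 and 3).

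The third comparison, PT-D vs PT-ND, sets diabetic against non-diabetic preterm kidneys. Here 4 of the 9 genes were called, all higher in PT-D, where 4.95% of all genes were called in either direction. Ngp rose by 3.38 on the log2 scale (SE 0.58, adjusted p = 0.00746), Ltf by 2.98 (SE 0.54, adjusted p = 0.00858), Cxcr2 by 2.84 (SE 0.55, adjusted p = 0.0111) and Csf3r by 2.05 (SE 0.42, adjusted p = 0.0132), by edgeR. In the same 4 genes every PT-D library was above every PT-ND library, which was so for 18.7% of all genes. At an unadjusted p under 0.05 there were 7 of 9, Il1b in the opposite direction, against 29.1% of all genes. DESeq2 called 5 of the 9, the same 4 higher and Il1b lower, where it called 6.1% of all genes. The median over the 9 genes was 1.71, against 0.05 over all genes tested.

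Il1b was lower in every PT-D library than in every PT-ND library, with a log2 fold change of -1 (SE 0.36, adjusted p = 0.0906) that did not pass the threshold. The alarmins, which were high in PT-ND replicate 3 as well, differed by 1.54 (SE 0.62, adjusted p = 0.126) for S100a8 and 1.71 (SE 0.63, adjusted p = 0.0984) for S100a9. Camp (1.52, SE 0.70) and Trem1 (1.07, SE 0.68) did not pass the threshold, and Trem1 ranged from 0.62 to 1.67 without single libraries. Leaving out single libraries left 3 to 5 genes called. Without PT-D replicate 1 the calls of Ngp (2.39), Ltf (2.24), Cxcr2 (2.31) and Csf3r (1.43) were all retained and Il1b was called lower (-1.37, SE 0.35, adjusted p = 0.0318 by edgeR). In the same fit S100a8 differed by 0.65, S100a9 by 0.81 and Camp by 0.98, each less than with that library by over 1.5 times. Within the libraries whose names carry the letter the 8 genes other than Il1b were 5.98 to 25.1 times as high in PT-D as in PT-ND (n = 1 and 1), and within the others 1.23 to 4.83 times (n = 2 and 2).

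None of the 9 genes was called for STZ in term mice or for early birth without STZ. In T-D vs T-ND edgeR called none of the 9 genes, none had an unadjusted p under 0.05 (11.8% of all genes did), and DESeq2 called none, where edgeR called 0.0673% and DESeq2 1.32% of all genes. The log2 fold changes ran from -0.60 (SE 0.42) for Il1b to 1.06 (SE 0.68) for Ngp, with a median of 0.34, against -0.02 over all genes. The value of Ngp was 2.38 (SE 0.54, adjusted p = 0.0537 by edgeR) without T-ND replicate 3 and 0.59 without T-D replicate 2, and that of Il1b was -0.26 without T-ND replicate 1. In PT-ND vs T-ND edgeR again called none, none had an unadjusted p under 0.05 (10.7% of all genes did), and DESeq2 called none, where edgeR called 0.0809% and DESeq2 0.737% of all genes. The values ran from -0.53 (SE 0.76) for Ngp, which turned to 0.76 without T-ND replicate 3, to 1.11 (SE 0.77) for Trem1, which ranged from 0.51 to 1.69 without single libraries, with a median of 0.28, against 0.00 over all genes. Standard errors of 0.38 to 1.09 leave room for moderate differences in both comparisons, so equal levels are not shown.

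An interaction term over all 14 libraries tested if STZ acted differently on preterm than on term mice. Csf3r was the 1 gene of 9 called, its STZ effect being larger in preterm mice by 2.32 on the log2 scale (SE 0.65, adjusted p = 0.0472 by edgeR), where 4.45% of all genes were called. Its call was lost without any 1 of 11 libraries and was kept without T-ND replicate 1, T-ND replicate 2 or T-D replicate 2. Cxcr2 (2.77, SE 1.19, adjusted p = 0.162), Ltf (2.33, SE 0.82, adjusted p = 0.0916) and Ngp (2.30, SE 1.03, adjusted p = 0.181) did not pass. Without PT-D replicate 1 these values were 2.24 for Cxcr2, 1.58 for Ltf and 1.31 for Ngp, that of Csf3r was 1.70, and S100a8 went from 1.17 to 0.29. At an unadjusted p under 0.05 there were 4 of 9, against 24.5% of all genes, and Il1b differed by -0.41 (SE 0.60). The median over the 9 genes was 1.27, against 0.07 over all genes tested.

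Other genes of neutrophil granules were taken from a list of 12, of which 9 were tested. In PT-D vs T-ND 3 of these 9 were called by edgeR, all higher, where 1.45% of all genes were called, with a median log2 fold change of 2.21 against 0.03 over all genes tested. DESeq2 called 5 of the 9, adding Cd177 and Chil3, where it called 4.32% of all genes. Mmp8, neutrophil collagenase, stood at 172, 105 and 92.8 in PT-D and between 6.39 and 28.3 in T-ND, a difference of 2.50 (SE 0.45, adjusted p = 0.0302). Mmp9, the gelatinase of tertiary granules, stood at 151, 67.0 and 66.4 in PT-D, and no library of the other groups exceeded 33.5. Pglyrp1, a granule protein that binds bacterial peptidoglycan and is a ligand of Trem1, stood at 107, 39.1 and 32.8 in PT-D and between 2.74 and 26.8 elsewhere. Mmp9 was called in PT-D against all 3 groups, by 2.21 (SE 0.44, adjusted p = 0.0372) against T-ND, 2.69 (SE 0.42, adjusted p = 0.031) against T-D and 3.22 (SE 0.50, adjusted p = 0.00547) against PT-ND, and in the interaction by 3.70 (SE 0.67, adjusted p = 0.0163). Of the 7 fits of PT-D vs T-ND that left out a single library, 2 kept the call of Mmp8, 1 that of Mmp9 and 1 that of Pglyrp1, and against T-D 4 of 7 kept that of Mmp9.

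Against PT-ND, 5 of the 9 tested granule genes were called higher in PT-D by edgeR, where 4.95% of all genes were called in either direction, adding Lcn2 (2.77, SE 0.31, adjusted p = 0.0017) and Cd177 (4.47, SE 0.92, adjusted p = 0.0132) to Mmp8, Mmp9 and Pglyrp1. Leaving out any single library kept the calls of Lcn2, Mmp8 and Mmp9 against PT-ND, and 5 of the 6 such fits kept that of Cd177 and 3 that of Pglyrp1. Lcn2 encodes an iron-siderophore binding protein that injured tubules make too. Its level was 2937 to 6790 in PT-D but also 890 to 6248 in T-D, and it was called against PT-ND alone. Lyz2, the lysozyme of neutrophils and macrophages, was called in no comparison and stood at 672 to 815 in PT-D and 459 to 1676 elsewhere.

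A list of 16 surface and mature-neutrophil genes had 15 matched and 14 tested members, of which edgeR called 2 higher in PT-D vs T-ND and none lower, where it called 1.45% of all genes, with a median of 1.37 against 0.03 over all genes tested. Fpr2, a receptor for formylated bacterial peptides, was at 161, 195 and 199 in PT-D and at 75.2 to 99.5 in T-ND, and was called with 1.12 (SE 0.19, adjusted p = 0.0279). Its T-D values of 132 to 346 overlapped with PT-D. DESeq2 called Fpr2 higher in T-D vs T-ND as well, as 1 of the 14 tested genes, where it called 1.32% of all genes. Asprv1, a skin protease also found in neutrophils, was called with 3.27 (SE 0.71, adjusted p = 0.0453), although its values of 13.5 to 56.6 in PT-D were matched by PT-ND, at 11.5 to 26.5. Leaving out single libraries kept the call of Fpr2 in 2 of 7 fits and that of Asprv1 in 1 of 7. Retnlg (15.5 to 286 over the 14 libraries) was not called anywhere, nor was Padi4, which ranged from 0 to 380 within the PT-D group alone.

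Hdc, the histamine-forming enzyme, which the kidney itself also expresses, went the other way. It stood at 9142 to 12920 in PT-ND and at 445 to 4500 in all other libraries. It was called higher in PT-ND vs T-ND, by 2.68 (SE 0.36, adjusted p = 0.0282), and lower in PT-D vs PT-ND, by -2.49 (SE 0.64, adjusted p = 0.0303). These calls were kept in 3 of 7 and 3 of 6 fits without a single library.

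The ligands of Csf3r and Cxcr2 did not share 1 order of the groups. Csf3, Cxcl1 and Cxcl2 had their highest group means in PT-ND, Cxcl3 in T-D and Cxcl5 in PT-D, while Ppbp was at most 10.7 in any library. In a list of 19 ligands and signalling partners edgeR called 1 in PT-D vs T-ND (Pglyrp1, higher, where 1.45% of all genes were called), none in PT-D vs T-D (0.193%) or T-D vs T-ND (0.0673%), and 1 in PT-ND vs T-ND (Cxcl2, higher, 0.0809%). In PT-D vs PT-ND it called 1 higher (Pglyrp1) and 1 lower (Csf3), where 4.95% of all genes were called. At an unadjusted p under 0.05 there were 12 of 19 in PT-D vs T-ND, against 24.3% of all genes. There were 7 of 19 in PT-D vs PT-ND (29.1% of all genes) and 6 of 19 in PT-ND vs T-ND (10.7%). In PT-D vs T-D there were 4 of 19, a share close to the 22.3% of all genes, and in T-D vs T-ND 6 of 19, against 11.8%.

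DESeq2 called more of these 19 partners. In PT-D vs T-ND it called 6, Pglyrp1, Cxcl2, Cxcl3, Cxcl5, Il1r2 and Il1rap, all higher, where it called 4.32% of all genes. It called 5 in T-D vs T-ND, Cxcl1, Cxcl2, Cxcl3, Cxcl5 and Il1rn, all higher, against 1.32% of all genes, and 3 in PT-ND vs T-ND, Cxcl1, Cxcl2 and Cxcl5, all higher, against 0.737%. In PT-D vs T-D it called Pglyrp1 and Il1r2 higher and Csf3 lower, against 2.96% of all genes, and the same genes in the same directions in PT-D vs PT-ND, against 6.1%.

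Csf3, which encodes granulocyte colony-stimulating factor, stood at 9.12, 12.0 and 3.20 in PT-D, 75.9, 60.9, 21.3 and 12.9 in T-D, 91.8, 26.01 and 21.9 in PT-ND, and 0, 0, 19.9 and 4.30 in T-ND. All PT-D libraries were below all T-D and PT-ND libraries, and the difference from PT-ND was called at -2.51 (SE 0.69, adjusted p = 0.0371), a call kept in 1 of 6 fits without a single library.

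Cxcl2, a ligand of Cxcr2, stood at 450, 58.7 and 144 in PT-D, 727, 375, 181 and 64.4 in T-D, 846, 480 and 274 in PT-ND, and 54.7, 45.7, 90.1 and 54.8 in T-ND. The T-ND values were low and close together, and those of the other groups ranged widely and overlapped. Its rise in PT-ND vs T-ND was 3.12 on the log2 scale (SE 0.37, adjusted p = 0.0184), called in 5 of 7 fits without a single library. Cxcl1, the other main ligand, stood at 1268 to 3131 in PT-D, 1745 to 4118 in T-D, 1711 to 5044 in PT-ND and 189 to 1238 in T-ND, and was called in no pairwise comparison by edgeR. Cxcl5, a further Cxcr2 ligand, stood at 265, 96.3 and 272 in PT-D, 70.8 to 191 in T-D, 121 to 149 in PT-ND and 5.94 to 63.9 in T-ND, with a difference of 2.71 (SE 0.64, adjusted p = 0.0527 by edgeR) in PT-D vs T-ND. Cxcl3 stood at 10.5 to 12.8 in PT-D, 5.15 to 22.7 in T-D, 1.15 to 10.2 in PT-ND and 0 to 3.57 in T-ND. So PT-D was above T-ND in every library for Cxcl1, Cxcl3 and Cxcl5, and overlapped with T-D for each of them. Il1r1, the receptor for interleukin-1, stood at 162 to 425 over all libraries, and Gsdmd, the pore-forming protein of pyroptosis, at 118 to 392, with neither called.

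**Figure D3:**
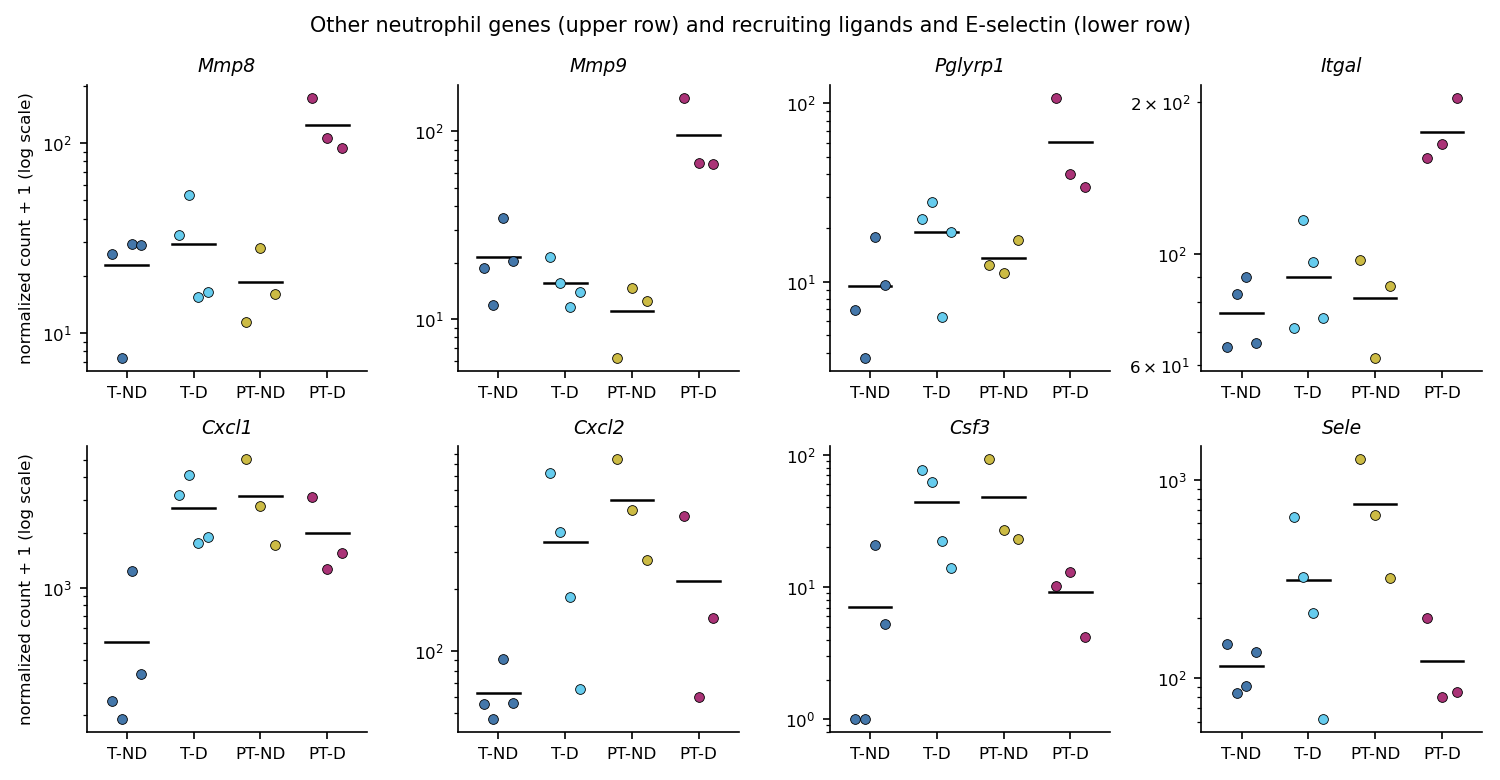
Normalized count plus 1 (log axis) of 4 further neutrophil or leukocyte genes (upper row) and of 3 ligands and E-selectin (lower row) in each library, with lines at the group means. PT-D is above all other groups for Mmp8, Mmp9, Pglyrp1 and Itgal, whereas Csf3 and Sele are highest in PT-ND, with Sele at 318 to 1268.

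Of 8 genes for adhesion to the vessel wall, Sele, the endothelial E-selectin that slows passing neutrophils, had its highest mean in PT-ND, as Csf3, Cxcl1 and Cxcl2 had. It stood at 199, 79.0 and 83.2 in PT-D, 649, 321, 212 and 60.5 in T-D, 1268, 663 and 318 in PT-ND, and 146, 82.2, 90.1 and 133 in T-ND. PT-ND was above PT-D and T-ND in every library. It was called higher in PT-ND vs T-ND, by 2.74 (SE 0.40, adjusted p = 0.0442), and lower in PT-D vs PT-ND, by -2.65 (SE 0.48, adjusted p = 0.00894). Itgal, a subunit of the leukocyte integrin LFA-1 that many lymphocytes carry as well, was 154 to 203 in PT-D and 61.1 to 116 in all other libraries, and was called against T-ND (1.2, SE 0.22, adjusted p = 0.0296) and against PT-ND (1.10, SE 0.27, adjusted p = 0.0233). Without single libraries Sele was called in 2 of 7 fits against T-ND and in 6 of 6 against PT-D, and Itgal in 2 of 7 and 3 of 6. Icam1 (1304 to 9040), Vcam1 (920 to 3364) and Selp (14.3 to 257) were called in no pairwise comparison by edgeR. DESeq2 called Icam1 higher in T-D vs T-ND and in PT-ND vs T-ND, and Vcam1 higher in PT-ND vs T-ND. Itgam, an integrin subunit of leukocytes, stood at 41.04 to 50.41 in PT-D and at most at 32.9 in all other libraries. Itgam was called in no pairwise comparison by edgeR, but DESeq2 called it higher in PT-D against T-ND, T-D and PT-ND. In these comparisons DESeq2 called 4.32%, 2.96% and 6.1% of all genes. Itgal and Sele were called by DESeq2 in the same pairwise comparisons and directions as by edgeR.

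The interaction term was negative for several of these partners, the opposite of Csf3r and Mmp9. It was called for Csf3 (-5.30, SE 1.39, adjusted p = 0.0385), Sele (-4.11, SE 0.85, adjusted p = 0.022), Cxcl2 (-3.76, SE 0.98, adjusted p = 0.0381), Cxcl1 (-3.14, SE 0.81, adjusted p = 0.0372) and Vcam1 (-1.51, SE 0.40, adjusted p = 0.0393), all by edgeR. These were 3 of the 19 ligands and partners and 2 of the 8 adhesion genes, where 4.45% of all genes were called. In each of these 5 genes the T-D mean was above the T-ND mean and the PT-D mean was below the PT-ND mean. The calls of Csf3, Cxcl1, Cxcl2 and Vcam1 were each lost without 8 to 10 of the 14 libraries, taken out singly, whereas Mmp9 was called without any single library and Sele without 12 of 14.

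Transcription factors of granulocyte development and subunits of the GM-CSF receptor formed a list of 7 genes, none of which was called in PT-D vs T-ND by edgeR (3 had an unadjusted p under 0.05, against 24.3% of all genes, and DESeq2 called Csf2rb, higher, where it called 4.32% of all genes). Cebpd, a C/EBP factor also made in stressed tubules, stood at 1048 to 1115 in PT-D, 1834 to 3165 in T-D, 1712 to 2882 in PT-ND and 501 to 1395 in T-ND. It was called lower in PT-D vs T-D (-1.2, SE 0.2, adjusted p = 0.0377) and in PT-D vs PT-ND (-1.15, SE 0.19, adjusted p = 0.00682), with an interaction of -2.63 (SE 0.40, adjusted p = 0.00722). Without single libraries these calls were kept in 2 of 7, 6 of 6 and 14 of 14 fits. Spi1, which encodes PU.1, stood at 193 to 217 in PT-D and 113 to 229 elsewhere, Cebpa at 614 to 1130 over all libraries and Csf2ra at 117 to 297, and none of them was called.

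The NADPH oxidase, which makes superoxide in neutrophils and macrophages, is described here by Cybb, Cyba, Ncf4 and Rac2, none of which was called in a pairwise comparison by edgeR or DESeq2, although 1 to 3 of these 4 had an unadjusted p under 0.05 by edgeR. There were 3 in PT-D vs T-ND, where 24.3% of all genes had one, 2 in PT-D vs T-D (22.3%) and in PT-D vs PT-ND (29.1%), and 1 in T-D vs T-ND (11.8%) and in PT-ND vs T-ND (10.7%). Cybb, its catalytic subunit, stood at 424 to 697 in PT-D and 239 to 463 elsewhere. Cyba, the partner subunit that most cells make, was lowest in PT-D, at 5827 to 6314 against 7148 to 13310 elsewhere, with a called interaction of -1.11 (SE 0.27, adjusted p = 0.0326). Ncf4 stood at 84.3 to 115 in PT-D and 91.8 to 104 in PT-ND, above every T-ND library (47.1 to 73.7). Its T-D values (69.1 to 104) overlapped with those of all other groups. Lying above every T-ND library was so for 12% of all genes in PT-D and for 5.48% in PT-ND. Rac2 (134 to 485) overlapped between the groups.

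Marker genes of other blood cells were set beside the 9 genes, and their part in the differences was not tested. The summed level of the 9 genes was 1520 to 5323 in PT-D, 403 to 1394 in T-D, 433 to 1484 in PT-ND and 474 to 1120 in T-ND. The 7 erythroid genes summed to 2409 to 5733 in PT-D, within the 1267 to 20370 of the other groups, and PT-D replicate 1, the library highest in neutrophil genes, stood at 4928. Hba-a2 was listed at 0 in all libraries, and reads that it shares with its near-identical copy Hba-a1 cannot be assigned. The 12 monocyte and macrophage genes summed to 2447 to 3463 in PT-D and 2617 to 5499 elsewhere, so that their highest sums were not in PT-D. By edgeR, 2 of the 12 were called higher in PT-D vs PT-ND (4.95% of all genes) and 1 higher in the interaction (4.45%). In PT-D vs PT-ND 5 of the 12 had a positive log2 fold change. Adgre1 stood at 133 to 198 in PT-D and 77.2 to 86.0 in PT-ND, and Cx3cr1 at 27.4 to 51.9 and 4.62 to 15.7. Both reached higher values in T-ND, up to 206 and 64.9.

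The sums of the lymphocyte lists did not separate PT-D either, at 178 to 262 for 8 T cell genes against 96.2 to 405 elsewhere, and at 14.6 to 37.6 for 5 B cell genes against 9.91 to 66.7. Cd8a, part of the T cell sum, alone ranged from 5.48 to 296 in the term groups. In PT-D vs T-ND none of the 8 T cell genes was called by edgeR, and 3 had an unadjusted p under 0.05, against 24.3% of all genes. Their median log2 fold change was 0.95, against 0.03 over all genes tested. The 5 plasma cell genes summed to 575 to 1212 in PT-D and to 161 to 4749 elsewhere, the 6 NK cell genes to 49.7 to 88.5 and to 34.4 to 135, and the 6 platelet genes to 131 to 166 and to 147 to 257. The 6 dendritic cell genes summed to 292 to 366 in PT-D and to 136 to 515 elsewhere. Of the other granulocytes, the 5 eosinophil genes summed to 32.8 to 223 in PT-D and 10.5 to 285 elsewhere, the 6 mast cell and basophil genes to 5.47 to 28.6 and 15.8 to 75.8, and Mcpt8 was at 0 throughout. The 6 pan-leukocyte genes summed to 1113 to 1233 in PT-D, 874 to 1200 in T-D, 845 to 1610 in PT-ND and 563 to 996 in T-ND, so PT-D was above T-ND in every library. Of these 6, Ptprc, which encodes the CD45 antigen of all white blood cells, was the gene called in PT-D vs T-ND, by 1.10 (SE 0.23, adjusted p = 0.0402 by edgeR), a call kept in 1 of 7 fits without a single library. It stood at 248, 281 and 349 in PT-D and at 101 to 221 in all other libraries, so it was highest in PT-D, as were 8 of the 9 genes by their means, and its part in their differences was not tested.

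**Figure D4:**
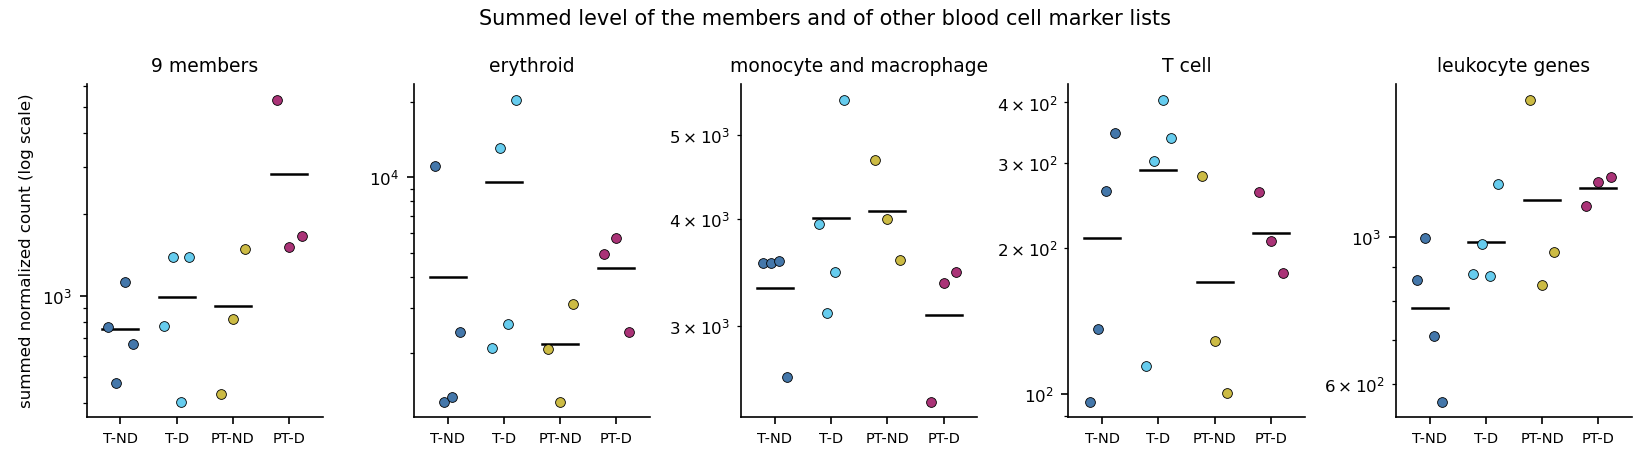
Summed normalized counts (log axis) of the 9 genes and of the erythroid, monocyte and macrophage, T cell and pan-leukocyte lists in each library, with lines at the group means. The 9 genes are highest in PT-D, at 1520 to 5323, while the erythroid and macrophage sums reach their highest values in T-D, at 20370 and 5499.

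The 10 genes whose pattern over the 14 libraries was most like that of the 9 were found from Pearson's r with the mean standardized log2 value of the 9 genes, among 15348 other genes with a mean normalized count of at least 10. Pglyrp1 was first (r = 0.918), and the others were Clk4 (0.885), Ifitm6 (0.879), Acta2 (0.866), Rps6kb1 (0.864), Clk3 (0.858), Cd33 (0.835), Synm (0.834), Gpr135 (0.832) and Pdpn (0.83). Pglyrp1, Ifitm6 and Cd33 are expressed by myeloid cells, whereas Acta2, Synm and Pdpn are genes of smooth muscle or podocytes and other non-blood cells. The ranking describes these libraries, which share 4 groups and in which PT-D replicate 1 is extreme.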

How the data were processed

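Whole-kidney RNA of 14 female mice was sequenced, 1 library per mouse. Per the study's methods, the authors trimmed reads, aligned them to GRCm39 with STAR and counted them on GENCODE M36 genes, from un-stranded libraries. The deposited values are raw read counts per gene, and column 2 (both strands together) of each table was used here, because the libraries carry no strand. Rows that name no gene were left out (reads on no gene made up 2.39 to 5.42% of reads, and those on several genes 6.86 to 8.09%). Of 56980 identifiers, 56236 matched GENCODE M39 without the version number.

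Genes with a total count of 10 or fewer were dropped (22339 kept). Each pairwise comparison was fitted on its own libraries, and the interaction on all 14, with the quasi-likelihood test of edgeR 4.0.16 (R 4.3.3), TMM normalization and Benjamini-Hochberg adjustment over all genes tested. Genes were called at an adjusted p under 0.05 where the log2 fold change was over 1 in size, and SE is the fold change divided by the square root of F. The code was tested on simulated counts. Alternatives were DESeq2 1.42.0, other normalizations and filters, a joint fit, a covariate for the letter ending some library names, a replicate block and the removal of each library. Intervals and floors were not used, and values with few counts carry counting error as well as animal spread. Replicate numbers come from the labels, which give no shared litter or day.

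The 9 genes and the lists set beside them were chosen with earlier results of these data known. Genes of the 6 neutrophil and partner lists were named where called in any comparison or among the 4 highest of their list, and some genes that met this rule are not reported here. Il1f9 was not matched. Promoters were read from RefSeq windows. Figures were drawn with matplotlib 3.10.9. Male libraries, qRT-PCR and histology were not analysed here.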

Additional observations from a re-analysis of the deposited data

Results flagged for a closer look

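In groups of 4, a library was marked when its gap to the nearest of the others was most of the group's range by Dixon's test at 95%, which marks about 1 in 20 groups by chance, and 9 of the 78 groups checked were marked. T-ND replicate 3 stood above the rest of its group for Cxcr2 (40.9 normalized counts), Ngp (76.5), Lcn2 (3105) and Cxcl1 (1238), and its removal raised the number of the 9 genes called in PT-D vs T-ND from 2 to 7. T-D replicate 2 stood above its group for Csf3r (93.8), and T-D replicate 4 for Fpr2 (346) and Rac2 (485). T-ND replicate 2 stood below its group for Mmp8 (6.39) and Cyba (7148).

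By edgeR's interaction test, STZ acted differently on preterm and on term kidneys for 9 of the genes named, where 4.45% of all genes were called. Genes of the lists were named partly because they were called, so this count is not a share of the lists. On the log2 scale the preterm minus term difference was 2.32 for Csf3r and 3.70 for Mmp9, and it was -3.14 for Cxcl1, -3.76 for Cxcl2, -5.30 for Csf3, -1.11 for Cyba, -4.11 for Sele, -1.51 for Vcam1 and -2.63 for Cebpd. Csf3r and Mmp9 were higher in PT-D than in PT-ND without overlap, and Csf3, Cxcl1, Cxcl2, Sele, Vcam1 and Cebpd had higher means in T-D than in T-ND and lower means in PT-D than in PT-ND. What moves with these differences was not tested further.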

How the results depend on the processing

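The number of the 9 genes called in PT-D vs PT-ND (4) lay between 3 and 6 under every alternative run and between 3 and 5 when single libraries were left out, and it stayed at 0 in T-D vs T-ND and PT-ND vs T-ND. In PT-D vs T-ND it went from 2 to 7 with DESeq2, 6 with no filter on low counts and 0 with the replicate block, and ranged from 0 to 7 without single libraries. In PT-D vs T-D it went from 0 to 4 with DESeq2, 7 with no filter and 2 in the joint fit of all 14 libraries, and ranged from 0 to 1 without single libraries. In the interaction it went from 1 to 2 with DESeq2, 0 with the library-name letter as a covariate and 0 with the replicate block, and ranged from 0 to 1 without single libraries. The cause of these changes was not tested.

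Over all genes the calls in PT-D vs T-ND went from 323 to 964 with DESeq2, 645 with no filter and 73 with the replicate block, and those in PT-D vs T-D from 43 to 661, 657 and 83, and to 396 in the joint fit. Of 71 single-gene results, with 1149 values under the alternatives, 926 kept direction and side of the threshold, 179 fell below it, 39 rose past it and 5 changed sign. The sign changed for Il1b in PT-D vs T-ND (0.13 with the letter as a covariate, and -0.54 to 0.18 without single libraries), for Ngp in PT-ND vs T-ND (-0.85 to 0.76) and for Camp in the interaction (-0.55 to 1.53). Same-numbered libraries did not deviate together (correlations of -0.281 to 0.308), so the replicate block pairs libraries that share only a number. Camp and Trem1 rest on too few reads for small differences to be detectable.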
